A study of Mus musculus with 10 samples.

Results

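The cytochrome P450 genes of mouse liver were compared between 5 control libraries and 5 libraries labelled Alk1-HEC-KO. Members were all protein-coding genes with a symbol of the form Cyp plus a number, pseudogenes left out, that held at least 10 estimated counts summed over the 10 libraries. That gave 75 of the 55385 gene IDs in the tables, in 31 subfamilies, while another 25 protein-coding P450 symbols stayed under the minimum. RNA came from frozen, homogenised whole liver and was sequenced on the BGISeq-500. The genotype label reads KO or Ctrl, the series title names Alk1 (also called Acvrl1, a BMP receptor of endothelial cells) as the gene knocked out, and the letters HEC are not spelled out. No strain, age, treatment or driver of the deletion is given in the labels, and whether the 5 libraries in each group stand for 5 animals is not stated. P-values therefore measure the spread between these libraries, which may be technical.

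Cytochromes P450 are heme enzymes that insert oxygen into drugs, toxins, fatty acids, sterols and bile acids, with electrons passed to them by a reductase or by ferredoxin. The liver holds most of the body's P450, and many hepatic P450 genes are zonated along the lobule. CYP2E1, CYP1A2 and several CYP2C enzymes lie around the central vein, where WNT signals from endothelial cells act on hepatocytes, while CYP2F2 marks hepatocytes near the portal vein. In whole tissue, fewer cells of a type and less RNA per cell cannot be told apart.

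Each library held 20.91 to 21.56 M estimated counts, and 12872 genes passed the count filter, 63 of them members. Levels are given in TPM (transcript abundance scaled for length and depth), and differences as log2 fold changes of the labelled knockout libraries over control. Called genes are those with an adjusted p under 0.05 in edgeR's quasi-likelihood test. Acvrl1 itself was not lower under the knockout label, with 0.296 to 1.05 TPM in control and 1.12 to 1.92 TPM in labelled knockout libraries. Its log2 fold change of 0.99 (SE 0.32) was not called (edgeR, adjusted p = 0.34). Its groups overlapped in log2 CPM (counts scaled to library size). Y-linked Ddx3y was read in all 10 libraries and Xist did not exceed 0.15 TPM. Saa1, an acute phase gene, exceeded 1000 TPM in control library 4 and in labelled knockout libraries 4 and 5. The numbers in the deposited file names form 3 runs, whose meaning the labels do not give, and the run with labelled knockout libraries 2, 4 and 5 holds no control. With the run as a term, the group value therefore rests on labelled knockout libraries 1 and 3 alone.

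Promoters are shown first for 4 P450 genes chosen among those with lower means in labelled knockout libraries, and for Cyp2f2 for contrast. Each is the RefSeq sequence (GRCm38.p6) of the 250 bases before the annotated start, 5′ to 3′ on the gene's strand. Capitals mark every match, on either strand, to CTTTGAT or CTTTGAA (words bound by TCF/LEF factors, the nuclear arm of WNT signalling), GCGTG (core of the site of the AHR receptor), AGGTCA (hexamer of nuclear receptor sites), CAAAGT (a word of HNF4 sites, which can overlap the reverse complement of the TCF/LEF words) and TATAAA. Starts and coordinates are those of chr9:57683656-57683905, minus strand, for Cyp1a2, chr7:140763569-140763818, plus strand, for Cyp2e1, chr7:26835089-26835338, plus strand, for Cyp2a5, chr19:39286835-39287084, plus strand, for Cyp2c29, and chr7:27119705-27119954, plus strand, for Cyp2f2.
Cyp1a2: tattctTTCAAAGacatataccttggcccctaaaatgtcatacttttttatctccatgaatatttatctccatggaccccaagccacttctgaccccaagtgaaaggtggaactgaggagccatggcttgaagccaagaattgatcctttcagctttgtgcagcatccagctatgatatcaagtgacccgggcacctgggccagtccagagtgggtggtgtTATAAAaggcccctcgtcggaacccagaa
Cyp2e1: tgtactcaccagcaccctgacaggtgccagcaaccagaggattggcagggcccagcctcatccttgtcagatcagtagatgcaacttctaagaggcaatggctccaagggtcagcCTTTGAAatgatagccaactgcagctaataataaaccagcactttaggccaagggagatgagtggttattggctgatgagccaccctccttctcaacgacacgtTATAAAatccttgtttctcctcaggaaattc
Cyp2a5: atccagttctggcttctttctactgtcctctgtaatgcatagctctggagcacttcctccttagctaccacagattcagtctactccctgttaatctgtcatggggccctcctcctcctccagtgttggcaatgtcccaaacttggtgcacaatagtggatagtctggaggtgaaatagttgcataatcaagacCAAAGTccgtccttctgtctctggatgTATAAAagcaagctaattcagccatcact
Cyp2c29: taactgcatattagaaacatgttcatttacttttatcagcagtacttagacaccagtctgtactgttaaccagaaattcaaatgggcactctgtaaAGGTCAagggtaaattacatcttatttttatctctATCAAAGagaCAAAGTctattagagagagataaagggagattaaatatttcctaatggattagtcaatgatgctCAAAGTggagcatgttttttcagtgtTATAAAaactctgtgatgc
Cyp2f2: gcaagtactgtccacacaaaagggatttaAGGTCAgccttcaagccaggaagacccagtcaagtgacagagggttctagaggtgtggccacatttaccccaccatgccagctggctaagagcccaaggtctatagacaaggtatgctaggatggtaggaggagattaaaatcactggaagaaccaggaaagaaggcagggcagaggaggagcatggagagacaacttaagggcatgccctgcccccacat

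TATAAA lay between positions -31 and -14 from the start (position 0) in Cyp1a2, Cyp2e1, Cyp2a5 and Cyp2c29, and no TATAAA was in the Cyp2f2 window. Among lower genes not shown, Cyp2c38 also had TATAAA, while Cyp2c37 and Cyp2c50 had none in their windows. The word therefore does not separate the lower genes from Cyp2f2. RefSeq held windows for 57 of the 75 genes, 63 windows of 300 bases in all (250 before and 50 after a start). TATAAA was in 44.4% of these and in 13.6% of all 32851 promoter windows of that length, and CAAAGT in 46.0% against 14.3%. AGGTCA was in 23.8% against 16.3%, and GCGTG in 20.6% against 32.4%. CTTTGAT or CTTTGAA was in 11.1% of the P450 windows and 8.65% of all windows, in the genes Cyp1a2, Cyp2e1, Cyp2c29, Cyp2c39, Cyp3a13 and Cyp26c1. Cyp2a5 had neither word in its window, and neither did Cyp2c37, Cyp2c38 and Cyp2c50, lower genes whose promoters are not shown. Cyp2c54 had no window. The same windows were searched for GTTAAT (an HNF1 word), found in 12.7% against 7.10%, and TTGCNNCA (a word like those of C/EBP sites), found in 22.2% against 11.4%. A match describes letters in these windows and is not evidence of binding.

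Taken as a family, P450 transcripts were a smaller part of the labelled knockout libraries, although the groups overlapped. Summed TPM over the 75 genes were 17268, 16716, 12045, 13813 and 15169 in control libraries 1 to 5. The labelled knockout libraries held 13558, 13173, 12516, 9748 and 7240. The means were 15000 ± 2136 and 11250 ± 2691 TPM (SD, n = 5 each), so that the labelled knockout mean was 75.0% of the control mean. Labelled knockout libraries 1 to 3 lay inside the control range, and libraries 4 and 5 lay below every control library. P450 genes took 2.10% to 2.93% of the estimated counts in control and 1.29% to 2.26% in labelled knockout libraries.

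Of the 63 tested members, 1 was called lower, Cyp1a2, which is 1.59% of members beside a background of 0.171% of all tested genes (22 of 12872). No member was called higher (background 0.186%), and DESeq2, run as an alternative, also called 0 higher (background 0.637%). DESeq2 called 6 members lower, Cyp1a2, Cyp2c29, Cyp2c37, Cyp2c50, Cyp2c54 and Cyp2e1 (background 0.544%). On simulated counts, 23 of 160 DESeq2 calls were genes that had not been changed, against 6 of 129 for edgeR. At an unadjusted p under 0.05 in edgeR, 15 members were lower (23.8%, background 3.42%) and 0 were higher (background 5.03%). Log2 CPM (counts scaled to library size) of the groups did not overlap in 7 members, all of them lower in labelled knockout libraries (11.1%, background 0.73%): Cyp1a2, Cyp2a5, Cyp2c29, Cyp2c38, Cyp2c50, Cyp2c54 and Cyp2e1. No member lay wholly higher (background 0.948%). Of the 7, Cyp2a5, Cyp2c38 and Cyp2c54 did overlap in TPM, which lack the scaling between libraries that the fold changes use. With the run of file numbers as a term, 0 members were called lower or higher (backgrounds 0.0233% and 0.0155%). That fit draws its group value from labelled knockout libraries 1 and 3 alone. Without the 3 libraries with Saa1 above 1000 TPM, 2 were called lower (background 0.145%) and 0 higher (background 0.0842%). With genes of at least 10 counts, 2 were called lower (background 0.146%) and 0 higher (background 0.152%).

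The fold change was below 0 for 46 members and above 0 for 17, with a median of -0.22, against 0.00 over all 12872 genes, of which 49.6% lay below 0. With scaling by library totals alone, which moves the median of all genes to 0.07, 40 members lay below 0 beside 36.95% of all genes. Among the 24 members above 100 TPM on average, 21 pointed lower, with a median of -0.28. The plot of fold changes by subfamily places the members with the largest negative values in CYP1A, CYP2A, CYP2C and CYP2E.

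**Figure D1:**
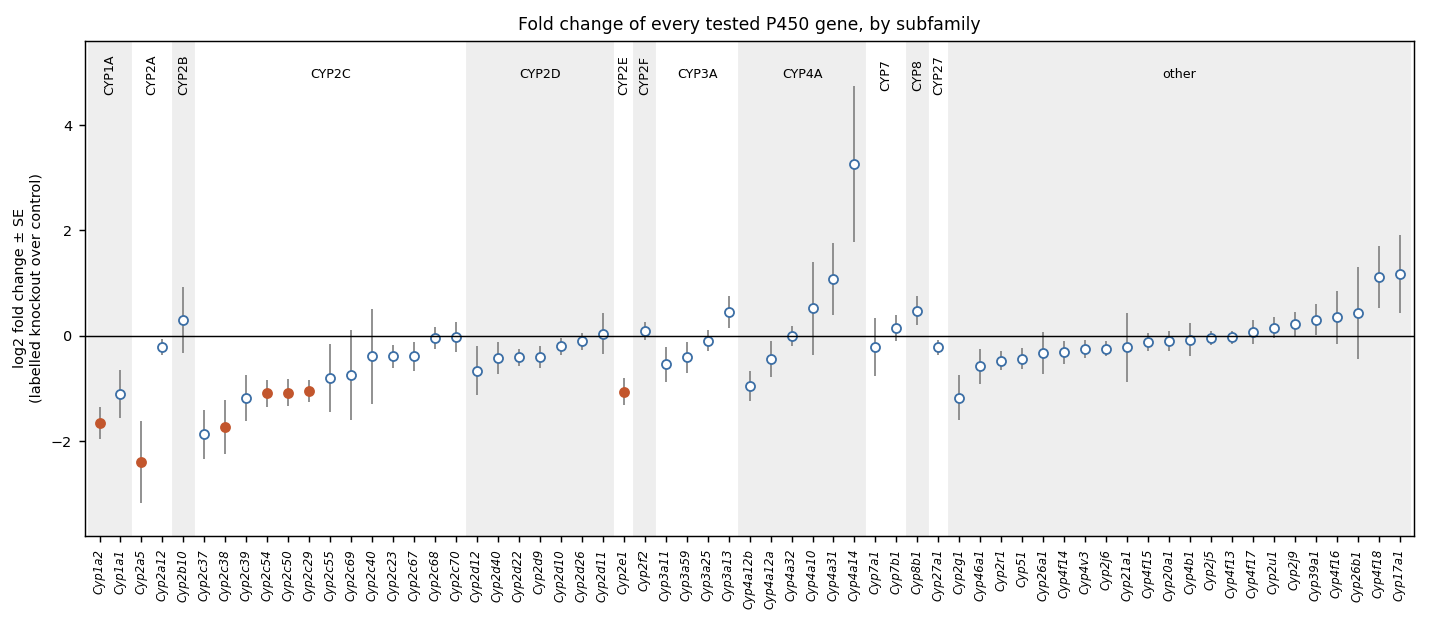
Log2 fold change (labelled knockout over control, vertical axis, with 1 SE from edgeR) of the 63 tested P450 genes, grouped by subfamily along the horizontal axis. Filled points mark the 7 genes whose groups did not overlap in log2 CPM, all below 0. Cyp4a14 lies highest at 3.27 with an SE of 1.48, and Cyp2a5 lowest at -2.39 with an SE of 0.78.

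Few genes carried most of the P450 transcripts. In control libraries the 3 most abundant members held 45.2% of summed P450 TPM and the 10 most abundant 74.9%. Those 10 were Cyp2e1, Cyp3a11, Cyp2d9, Cyp2f2, Cyp2d10, Cyp2a5, Cyp2d26, Cyp2c29, Cyp2c70 and Cyp2a12. At the other end, 21 members averaged less than 1 TPM. The share of Cyp2e1 in summed P450 TPM was 21.0% in control and 14.7% in labelled knockout libraries, that of CYP2A genes 7.10% and 4.59%, and that of Cyp2f2 6.48% and 9.87%. CYP3A genes had nearly equal shares when pooled over the libraries of a group, 18.7% in both, but single libraries differed. They held 4483 of 17268 TPM in control library 1 and 2042 of 15169 TPM in control library 5. Labelled knockout library 2 held 1510 of 13173 TPM and library 4 held 2624 of 9748 TPM.

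**Figure D2:**
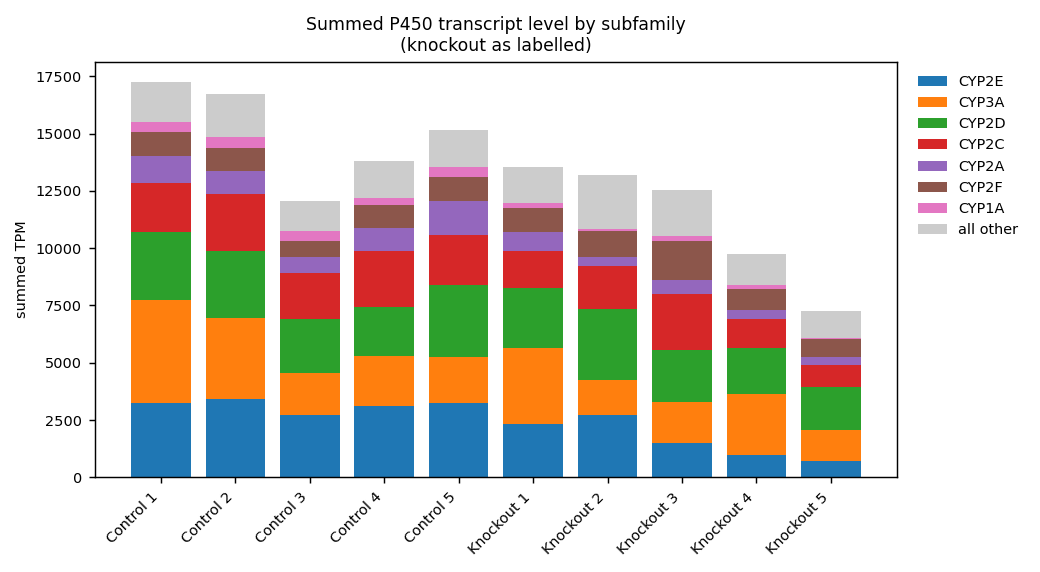
Summed TPM of P450 genes in each library (vertical axis), stacked by subfamily, for control libraries 1 to 5 and labelled knockout libraries 1 to 5. The bars run from 12045 to 17268 TPM in control and from 7240 to 13558 TPM in labelled knockout libraries, and the CYP2E segment is shortest in labelled knockout library 5 at 715 TPM.

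The CYP1A subfamily held the only member called by edgeR. Cyp1a2 (ENSMUSG00000032310.4, chromosome 9, 57676937 to 57683703, GRCm38) encodes the main caffeine-metabolising enzyme and a known target of AHR. Its levels were 441, 492, 423, 287 and 436 TPM in control libraries 1 to 5 and 213, 99.7, 194, 157 and 54.7 TPM in labelled knockout libraries 1 to 5. Every labelled knockout library lay below every control library, and control library 4 was the lowest control. The mean fell from 416 ± 76.7 to 144 ± 65.8 TPM (SD, n = 5 each), a log2 fold change of -1.65 with SE 0.30 (edgeR, adjusted p = 0.034).

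That call did not hold in 13 of the 20 alternatives, although the fold change stayed between -1.85 and -1.21 in all of them. Limma on log2(TPM + 1) gave an adjusted p of 0.052, and edgeR without the 3 libraries with Saa1 above 1000 TPM gave 0.057. With the run of file numbers as a term it was -1.21 (edgeR, adjusted p = 0.86), and within both runs that hold a control the labelled knockout library lay below each control library. Cyp1a1, the inducible neighbour of Cyp1a2 on chromosome 9, stayed below 1 TPM in all 10 libraries. It averaged 0.443 ± 0.334 TPM in control and 0.212 ± 0.0447 TPM in labelled knockout libraries (log2 fold change -1.10, SE 0.45, edgeR adjusted p = 0.53). Of the 31-base words of the annotated Cyp1a2 transcripts, 92.3% were found in no other gene, so few reads could be taken for those of a relative.

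Cyp2e1 (chromosome 7, 140763739 to 140774987), which oxidises ethanol, acetone and acetaminophen, was the most abundant P450 transcript in control libraries. In labelled knockout libraries Cyp3a11 had a higher mean (1789 against 1658 TPM). Control libraries 1 to 5 held 3264, 3436, 2739, 3099 and 3227 TPM, and labelled knockout libraries 2337, 2724, 1519, 994 and 715 TPM. The groups did not overlap in TPM, where labelled knockout library 2 came close to control library 3. TPM leave out the TMM scaling between libraries that the fold changes use. The TMM factor was lowest in control library 3 (0.869) and highest in labelled knockout library 2 (1.107). Control library 3 also held the largest mitochondrial share of counts (16.6%). The SD was 261 TPM in control and 858 TPM in labelled knockout libraries, and in log2 CPM 0.12 and 0.64. The log2 fold change of -1.06 (SE 0.26) was not called by edgeR (adjusted p = 0.17) and was called by DESeq2 (adjusted p = 0.0076). It was -0.75 without the 3 libraries of high Saa1 (edgeR, adjusted p = 0.61) and -0.88 with the run of file numbers as a term (adjusted p = 1.0).

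Set against Cyp2f2 in the same library, the ratio of Cyp2e1 was 3.09, 3.36, 3.71, 3.10 and 3.08 in control libraries. In labelled knockout libraries it was 2.19, 2.45, 0.892, 1.08 and 0.952. The ratio was lower in all 5 labelled knockout libraries than in any control library and lay in 2 ranges, labelled knockout libraries 1 and 2 above 2 and the other 3 near 1. The ratio of Cyp1a2 to Cyp2f2 was 0.287 to 0.573 in control and 0.0729 to 0.200 in labelled knockout libraries. The plot of levels by library shows these genes beside Cyp2f2 itself.

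**Figure D3:**
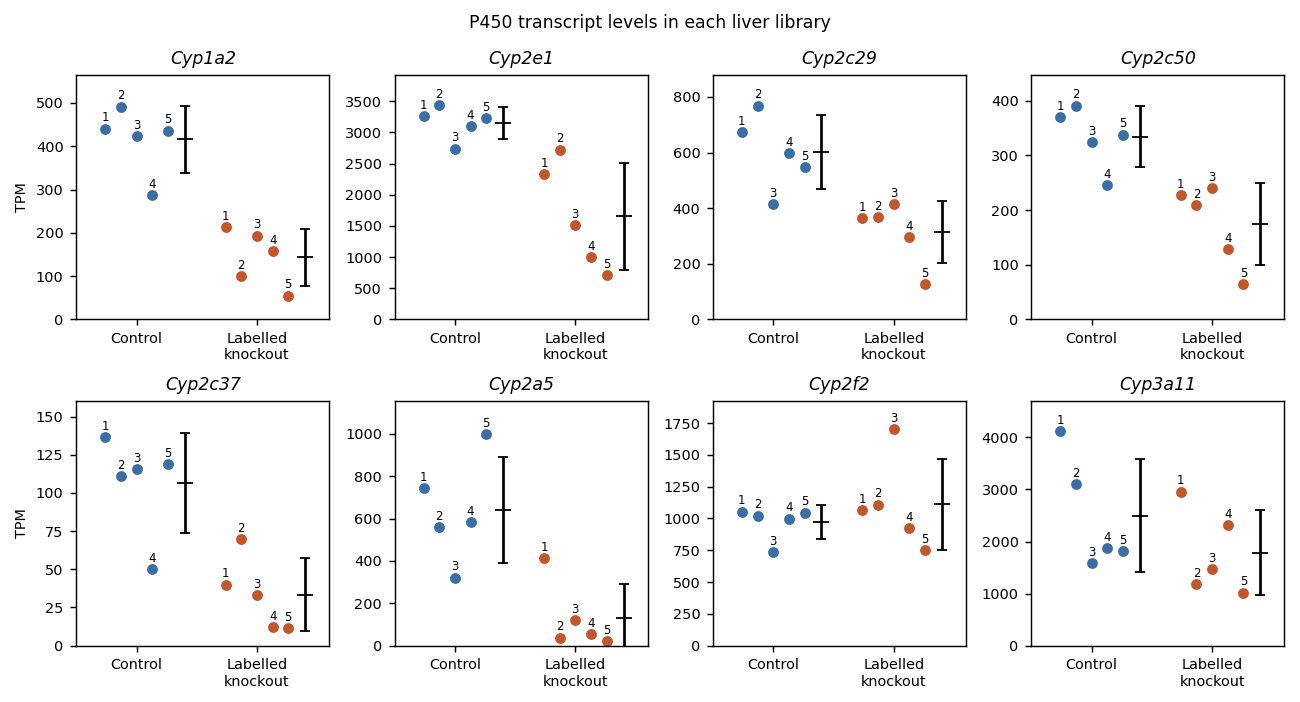
TPM (vertical axes, linear from 0) of 8 P450 genes in each library, with the library number above each point, and the mean and SD of each group beside the points. Cyp1a2, Cyp2e1, Cyp2c29 and Cyp2c50 show no overlap between groups, while Cyp2f2 and Cyp3a11 do overlap. The lower SD bar of labelled knockout Cyp2a5 (129 ± 163 TPM) would pass below 0 and is cut there.

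The CYP2C subfamily, which metabolises drugs, steroids and arachidonic acid, pointed lower in all 13 of its tested members, and in 11 with scaling by library totals alone, none of them called by edgeR. Its median log2 fold change was -0.80, beside -0.22 for all tested P450 genes. Summed CYP2C levels were 2260 ± 211 TPM in control and 1632 ± 568 TPM in labelled knockout libraries, 72.2% of control. Labelled knockout library 3, at 2446 TPM, was inside the control range and library 5, at 961 TPM, far below it. In the Cyp2c cluster on chromosome 19, whose 12 members span 1180 kb (39007019 to 40187333), the values were not uniform.

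Cyp2c29, the most abundant CYP2C gene in control libraries, had 674, 768, 416, 597 and 548 TPM in control and 365, 367, 414, 296 and 128 TPM in labelled knockout libraries. In TPM, which leave out the TMM scaling, the groups were separated only narrowly, by control library 3 and labelled knockout library 3. The TMM factors of those libraries were 0.869 and 1.059. Its log2 fold change was -1.04 (SE 0.21, edgeR, adjusted p = 0.055), and it was called without labelled knockout library 1 (-1.12, adjusted p = 0.044 in edgeR) or 5 (-0.88, adjusted p = 0.025). With the run as a term it was -0.76 (edgeR, adjusted p = 1.0).

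Cyp2c37, Cyp2c50 and Cyp2c54, which lie side by side in the cluster, share much sequence. Only 52.6% of the 31-base words of Cyp2c37 transcripts, 70.8% of those of Cyp2c50 and 57.7% of those of Cyp2c54 were found in no other gene, so reads could be split between them. Summed over the 3 genes, levels were 629, 625, 541, 371 and 567 TPM in control and 334, 358, 340, 184 and 95.8 TPM in labelled knockout libraries, with no overlap. The labelled knockout mean was 48.0% of the control mean. Singly, Cyp2c37 had the largest negative fold change of the cluster at -1.87 (SE 0.47, edgeR, adjusted p = 0.23), followed by Cyp2c38 at -1.73 (SE 0.51, adjusted p = 0.32). Without the 3 libraries of high Saa1, Cyp2c37 (-1.60, adjusted p = 0.026) and Cyp2c54 (-0.91, adjusted p = 0.029) were the members called by edgeR.

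Between Cyp2c39 and Cyp2c37 in the cluster, Cyp2c40, Cyp2c67, Cyp2c68 and Cyp2c69 share most of their words (27.4% to 38.0% unique) and are best read as a sum. That sum was 321, 396, 402, 415 and 357 TPM in control and 276, 601, 502, 163 and 215 TPM in labelled knockout libraries. Labelled knockout libraries 2 and 3 lay above all controls and the other 3 below all controls, so the means (378 ± 38.3 and 351 ± 190 TPM) hide the spread. Cyp2c70, which makes muricholic acids in rodents, had 450 ± 166 and 476 ± 208 TPM and a log2 fold change of -0.02 (SE 0.29, edgeR adjusted p = 0.99). With library totals alone it was 0.05.

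**Figure D4:**
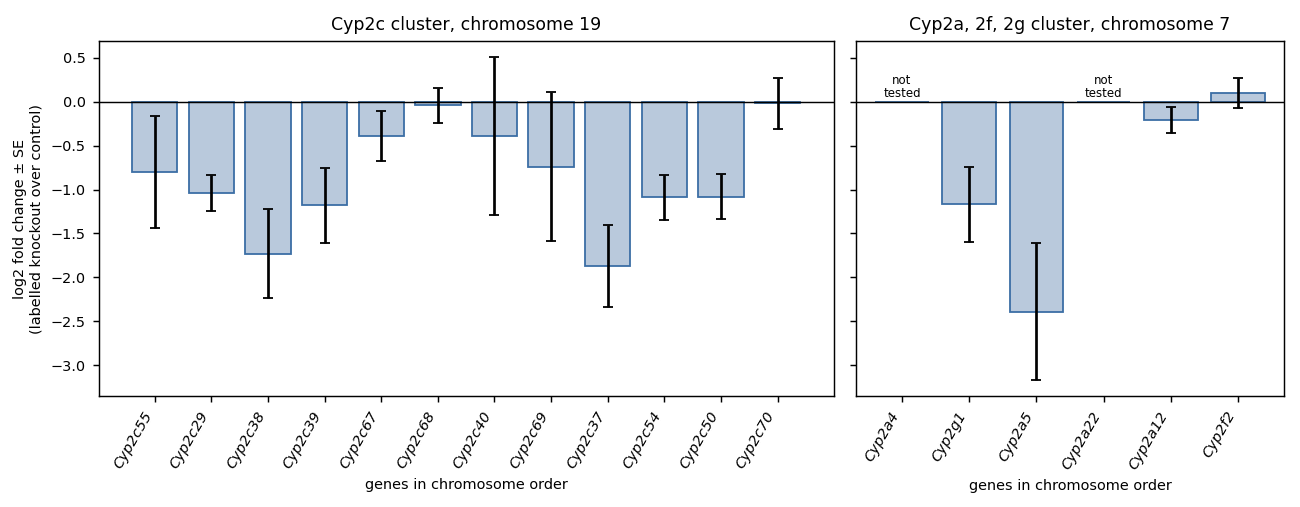
Log2 fold change (labelled knockout over control, with 1 SE, vertical axis) of P450 genes in chromosome order for the Cyp2c cluster and the Cyp2a, 2f and 2g cluster. In the Cyp2c cluster the values run from -1.87 (Cyp2c37) to -0.02 (Cyp2c70), and in the second cluster Cyp2a5 at -2.39 stands near Cyp2f2 at 0.10.

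The cluster of Cyp2a, Cyp2f and Cyp2g genes on chromosome 7 held neighbours with unlike values. Cyp2a5 (26835305 to 26843548), the coumarin hydroxylase of mouse liver, had 742, 561, 321, 584 and 999 TPM in control and 413, 38.1, 119, 54.8 and 20.2 TPM in labelled knockout libraries. Labelled knockout library 1 exceeded control library 3 in TPM, and the other 4 lay far below every control. The means were 641 ± 250 and 129 ± 163 TPM, 20.1% of control, yet the log2 fold change of -2.39 (SE 0.78) was not called (edgeR, adjusted p = 0.41). Without labelled knockout library 1 it was -3.59 and was called (edgeR, adjusted p = 0.0099). With the run of file numbers as a term it was -1.57 (edgeR, adjusted p = 1.0).

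Cyp2a4, a steroid hydroxylase, shares 55.9% of its words with Cyp2a5 and had too few counts to be tested. Adding it to Cyp2a5 left the labelled knockout mean at 20.2% of control. Cyp2a12, another Cyp2a gene of the cluster, had 423 ± 57.7 and 386 ± 57.2 TPM (log2 fold change -0.21, SE 0.15, edgeR, adjusted p = 0.74). The ratio of Cyp2a5 to Cyp2a12 was 0.916 to 1.97 in control libraries, and in labelled knockout libraries it was 1.06 in library 1 and 0.0615 to 0.250 in the others. Cyp2g1, mainly an olfactory P450, averaged 4.08 TPM in control and 1.90 TPM in labelled knockout libraries (-1.17, SE 0.43, edgeR, adjusted p = 0.48).

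Cyp2f2 (27119909 to 27133660), the naphthalene-activating enzyme of airway and periportal liver, had 1055, 1022, 739, 999 and 1047 TPM in control and 1066, 1110, 1702, 923 and 751 TPM in labelled knockout libraries. The groups overlapped throughout, with control library 3 low and labelled knockout library 3 high in TPM. Its log2 fold change was 0.10 (SE 0.17, edgeR, adjusted p = 0.90) and turned to -0.06 without labelled knockout library 3.

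CYP2D genes, whose human counterpart metabolises many amines, pointed lower in 6 of 7 tested members, with none called and a median of -0.40. Cyp2d9, a male-biased testosterone hydroxylase, had 1125 ± 272 TPM in control and 916 ± 199 TPM in labelled knockout libraries (-0.40, SE 0.21, edgeR adjusted p = 0.64). Cyp2d10 and Cyp2d26 were nearly level between groups, at 757 against 708 TPM and 611 against 605 TPM. Summed over the 8 members, CYP2D levels were 2153 to 3113 TPM in control and 1911 to 3120 TPM in labelled knockout libraries.

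Among the remaining genes of the CYP2 family, the arachidonic acid epoxygenase Cyp2j5 averaged 191 ± 40.0 and 196 ± 43.6 TPM. Cyp2b10, the classic target of the receptor CAR, stayed near 1 TPM or below in 9 libraries and reached 2.05 TPM in labelled knockout library 1. Cyp2r1, a vitamin D 25-hydroxylase, had 11.4 ± 1.56 TPM in control and 8.41 ± 2.43 TPM in labelled knockout libraries (-0.47, SE 0.18, edgeR, adjusted p = 0.49). Cyp2u1, a fatty acid hydroxylase, had 11.4 ± 2.18 and 13.6 ± 3.87 TPM.

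CYP3A enzymes clear a wide range of drugs and are induced through the receptor PXR. Cyp3a11, the main mouse form, had 4118, 3098, 1585, 1875 and 1817 TPM in control and 2959, 1184, 1468, 2315 and 1019 TPM in labelled knockout libraries. Both groups split widely and overlapped. The highest values were in control libraries 1 and 2, followed by labelled knockout library 1, and these libraries make up 1 run of file numbers. Fos (an immediate early gene) was above 20 TPM in control libraries 1 and 2 and at 1.97 TPM in labelled knockout library 1. The log2 fold change of Cyp3a11 was -0.54 (SE 0.33, edgeR, adjusted p = 0.70), and -0.11 without control libraries 1 and 2. The part of Fos or of the run in the value was not tested. Cyp3a25 and Cyp3a59 share 41.2% to 43.5% of their words, and their sum averaged 259 ± 81.6 and 245 ± 32.0 TPM. Cyp3a13 pointed higher, from 50.7 ± 25.2 to 69.9 ± 24.3 TPM in mean, without passing the test (0.45, SE 0.30, edgeR, adjusted p = 0.72).

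CYP4 enzymes hydroxylate fatty acids and eicosanoids at the omega end, and Cyp4a10 and Cyp4a14 are textbook targets of PPARα. Of 13 tested genes on this list, 7 pointed lower and 6 higher, none was called, and the median was 0.00. With scaling by library totals alone, 5 pointed lower. Cyp4a14 had 7.90, 1.65, 1.88, 4.33 and 3.31 TPM in control and 3.41, 188, 2.43, 0.424 and 22.7 TPM in labelled knockout libraries. Labelled knockout library 2 alone sets the mean, library 5 is the only other one above the controls, and library 4 is below all of them. The log2 fold change was 3.27 with an SE of 1.48 (edgeR, adjusted p = 0.60), and it was -0.62 with the run as a term.

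Cyp4a10, Cyp4a31 and Cyp4a32 showed the same library standing apart, at 209, 16.3 and 16.2 TPM, against at most 30.2, 3.47 and 8.98 TPM in the other labelled knockout libraries. Cyp4a10 was also high in control library 1, at 70.8 TPM. The receptor gene Ppara averaged 18.8 ± 5.81 and 20.5 ± 9.20 TPM.

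Cyp4a12a and Cyp4a12b, the male-biased arachidonic acid hydroxylases, share 62.2% to 62.9% of their words. Their sum was 277 ± 103 TPM in control and 203 ± 107 TPM in labelled knockout libraries, and Cyp4a12b alone had a log2 fold change of -0.95 (SE 0.28, edgeR adjusted p = 0.30). CYP4F genes, which inactivate leukotrienes, summed to 250 ± 41.4 and 238 ± 74.8 TPM, and 3 of their 6 tested members pointed lower (2 with library totals alone). Cyp4v3, the mouse counterpart of a human gene of retinal disease, had 124 ± 21.5 and 112 ± 31.3 TPM.

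The P450 genes of bile acid and oxysterol metabolism did not move in 1 direction. Of 6 tested, 3 pointed lower and 3 higher, none was called and the median was -0.03. Cyp7a1, the rate-limiting enzyme of the classic route, had 25.9, 44.8, 7.56, 62.1 and 48.3 TPM in control and 27.9, 39.0, 51.9, 48.3 and 5.09 TPM in labelled knockout libraries. Control library 3 and labelled knockout library 5 were low, and the rest overlapped (log2 fold change -0.21, SE 0.55, edgeR, adjusted p = 0.94). Cyp8b1, the sterol 12-alpha-hydroxylase that sets the share of cholic acid, had 185, 243, 142, 125 and 228 TPM in control and 160, 549, 232, 244 and 207 TPM in labelled knockout libraries. Labelled knockout library 2 stood apart again, and the log2 fold change was 0.48 (SE 0.27, edgeR, adjusted p = 0.67).

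Cyp27a1 and Cyp7b1, of the alternative route, had 259 ± 34.3 against 238 ± 66.5 TPM and 122 ± 22.1 against 143 ± 35.3 TPM. Cyp39a1, a hydroxylase of 24-hydroxycholesterol, averaged 11.3 and 14.7 TPM, and Cyp46a1, which makes that oxysterol mainly in brain, 1.02 and 0.726 TPM.

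**Figure D5:**
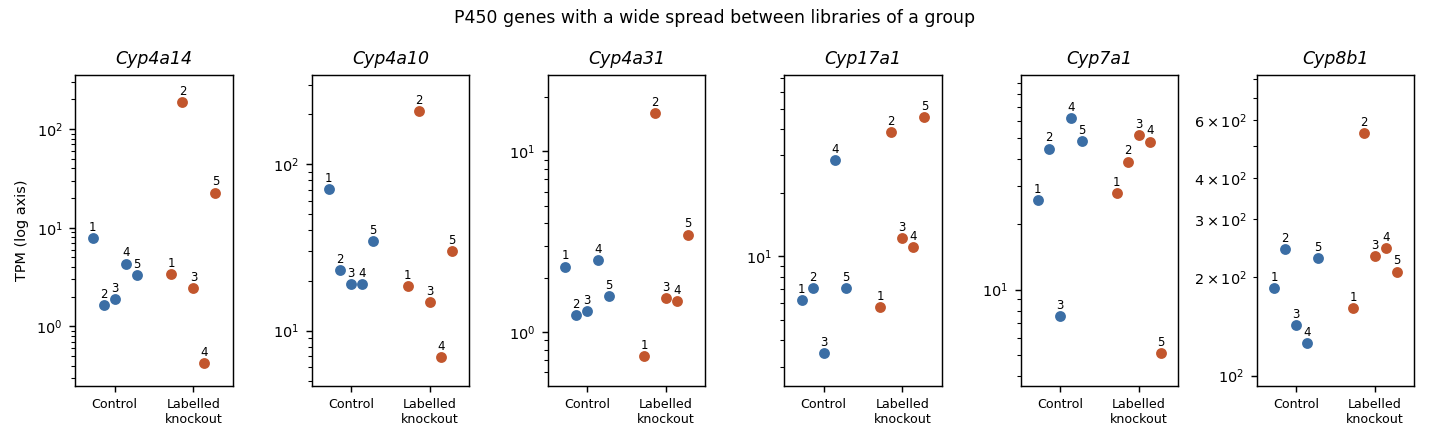
TPM (vertical axes, logarithmic) of 6 P450 genes with a wide spread between libraries of a group, with the library number above each point. Labelled knockout library 2 is the highest of its group for Cyp4a14 (188 TPM), Cyp4a10 (209 TPM), Cyp4a31 (16.3 TPM) and Cyp8b1 (549 TPM), while Cyp7a1 is lowest in labelled knockout library 5 (5.09 TPM) and control library 3 (7.56 TPM).

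For sterol and steroid synthesis, Cyp51, the lanosterol demethylase of cholesterol synthesis, had 47.0 ± 11.5 TPM in control and 37.1 ± 15.2 TPM in labelled knockout libraries (-0.43, SE 0.20, edgeR, adjusted p = 0.59). Cyp17a1, a steroid hydroxylase and lyase that rodent liver also expresses, had 6.21, 7.04, 3.46, 28.6 and 7.07 TPM in control and 5.76, 38.6, 12.2, 11.02 and 45.5 TPM in labelled knockout libraries. The log2 fold change was 1.18 (SE 0.74, edgeR, adjusted p = 0.72), with control library 4 and labelled knockout libraries 2 and 5 high. It was 1.90 without control library 4, 0.53 without labelled knockout library 5 and -0.26 with the run as a term, and was called in none of these. Cyp21a1 and Cyp11a1 stayed below 2 TPM in every library. The adrenal cortex list of 7 genes summed to 0.546 to 1.43 TPM in control and 0.674 to 1.82 TPM in labelled knockout libraries. Of its members, Mc2r was at 0 in all libraries, Hsd3b1 held 1 count over the control and 2 over the labelled knockout libraries, and Cyp11b1 (control) and Nr5a1 (labelled knockout) held 1 count each. Star, a cholesterol carrier, was read in every library at 0.225 to 0.607 TPM (log2 fold change 0.16, edgeR, adjusted p = 0.90). The part of adrenal tissue in these values was not tested.

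In the retinoic acid pathway, Cyp26a1, which breaks down retinoic acid, had 10.4 ± 5.03 and 8.55 ± 2.88 TPM. Cyp26c1, a relative with much lower levels, had 0.192, 0.0699, 0.147, 0.104 and 0.222 TPM in control and 0, 0, 0.0349, 0 and 0 TPM in labelled knockout libraries. That is 23 counts in the control libraries and 1 in the labelled knockout libraries, so that 95.8% of its counts were in control (95% exact Clopper-Pearson interval 78.9% to 99.9%, counting error only). It did not pass the default count filter. Under the filter of at least 10 counts its log2 fold change was -3.94 (SE 0.96, edgeR, adjusted p = 0.14).

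Libraries differed more in P450 levels within the labelled knockout group. The SD of log2 CPM was larger there than in control for 49 of 63 tested members (77.8%), and for 63.2% of all tested genes. Its median over members was 0.56 in labelled knockout and 0.43 in control libraries, and over all tested genes 0.32 and 0.26. The widest spreads within the labelled knockout group belonged to Cyp4a14 (SD 3.30), Cyp2c40 (2.52) and Cyp2c69 (2.41). Labelled knockout library 5 was the lowest of its group for 20 of the tested members, and library 1 the highest for 20.

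The proteins that serve P450 enzymes showed no called change. Por, the reductase that supplies electrons in the endoplasmic reticulum, had 190 ± 47.9 and 182 ± 62.7 TPM (-0.16, SE 0.20, edgeR, adjusted p = 0.86). Of 8 electron partners tested, 7 pointed lower (6 with library totals alone) and 1 higher, with a median of -0.16. Cytochrome b5 (Cyb5a) had 1144 ± 46.5 and 970 ± 224 TPM. Of 11 genes of heme synthesis and breakdown, 8 pointed lower (7 with library totals alone) and 3 higher, with a median of -0.11 and none called. Alas1, the rate-limiting enzyme of heme synthesis, had 379, 405, 266, 784 and 917 TPM in control and 279, 529, 364, 169 and 37.7 TPM in labelled knockout libraries, with overlap (-1.18, SE 0.53, edgeR, adjusted p = 0.59). Alad, the next enzyme, had the smallest adjusted p of the list (-0.54, SE 0.15, edgeR, adjusted p = 0.26), and its groups did not overlap in log2 CPM.

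Among the receptors and factors that set P450 transcription, 15 of 18 tested genes pointed lower and 3 higher, with a median of -0.14 and none called. With scaling by library totals alone, 10 pointed lower. Ahr, the receptor that induces Cyp1a2, had 4.48 ± 2.04 and 2.55 ± 0.901 TPM (-0.89, SE 0.26, edgeR, adjusted p = 0.29). Nr1i3 (CAR) had 45.1 ± 13.2 and 31.8 ± 8.94 TPM (-0.65, SE 0.26, edgeR, adjusted p = 0.52), and Nr1i2 (PXR) had 24.4 ± 4.35 and 22.4 ± 4.86 TPM. Cebpa, the most abundant of the list, was level at 213 ± 29.8 and 218 ± 32.6 TPM.

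Zonal genes outside the family give the setting for these values. All 10 P450 genes listed as pericentral pointed lower, with 1 called and a median of -1.07, and their summed TPM were 6236 to 10170 in control and 2170 to 6931 in labelled knockout libraries. Of 14 other pericentral genes, 11 were called lower (background 0.171% of all tested genes), all 14 pointed lower, and the median was -2.15. The 11 were Glul, Rhbg, Slc1a2, Slc13a3, Lect2, Axin2, Lgr5, Tbx3, Sp5, Gulo and Slc22a3. Glul, the glutamine synthetase of the hepatocytes next to the central vein, fell from 283 ± 48.5 to 32.4 ± 10.8 TPM (-3.24, SE 0.20, edgeR, adjusted p = 2.9e-06). Of 12 periportal genes, 4 pointed lower (1 with library totals alone) and 8 higher, with a median of 0.12 and none called. In the 8 general hepatocyte genes listed, 3 pointed lower and 5 higher, with a median of 0.06. The pericentral lists were drawn with results of these data known, so their direction is not independent evidence.

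Markers of other cell types differed from list to list. All 12 Kupffer cell genes pointed higher (median 0.71, none called), and their summed TPM ran from 138 to 219 in control and from 222 to 425 in labelled knockout libraries. All 8 tested leukocyte genes pointed higher (median 1.06), with sums of 21.8 to 35.9 and 35.8 to 103 TPM. Of 12 endothelial genes, Cd34 and Emcn were called higher (background 0.186%), 11 pointed higher and sums were 35.9 to 72.4 and 53.4 to 105 TPM. Of 3 tested cholangiocyte genes, Epcam pointed lower and 2 pointed higher (median 0.09, none called), with overlapping sums of 15.1 to 28.7 and 16.7 to 51.8 TPM, and the untested Krt7, Krt19 and Tspan8 had overlapping values. Of 11 stellate cell and fibroblast genes, 3 pointed lower and 8 higher (median 0.20, none called), with overlapping sums of 59.0 to 89.9 and 51.3 to 168 TPM. None of these cell type lists had a gene at 0 in every library. Of 18 acute phase genes, which hepatocytes themselves make in large part, 17 pointed higher (median 0.70, none called), with overlapping sums of 9700 to 49830 and 11540 to 67550 TPM. Their part in the P450 values was not tested.

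The 12 members that were not tested held few counts and did not pass the default filter. Cyp2a4 had the most, 104 counts in control and 67 in labelled knockout libraries, and 60.8% of its counts were in control (95% exact interval 53.1% to 68.2%). For Cyp1b1, an extrahepatic P450 of the AHR battery, 45.1% of counts were in control (34.1% to 56.5%), and for Cyp4f39, a skin fatty acid hydroxylase, 46.7% (31.7% to 62.1%). Those intervals cover counting error only. The female-biased Cyp3a41a and Cyp3a44 held 16 and 11 counts over all 10 libraries, and Cyp2b13 held none, in libraries that all carried Y-linked transcripts.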

How the data were processed

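Transcripts of frozen whole mouse liver were measured in 10 libraries, and each has a table of estimated counts and a table of TPM per Ensembl gene, both deposited by the authors. Reads were trimmed with Trim Galore 0.6.4 and quantified with kallisto 0.4.6 against GRCm38.p6, per the submitters' processing notes. How transcripts were summed to genes and whether strand was used are not given in the sources used here.

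Groups came from the sample titles. Of the nonzero estimated counts 38.3% were whole within 1e-06, and all were rounded, shifting library totals by up to 0.00078%. Symbols and coordinates came from GENCODE vM21 (GRCm38), matched without version for 55144 IDs, and 241 IDs without a match held up to 0.013% of a library's counts. Depth was 20.91 to 21.56 M counts per library.

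Genes passing filterByExpr, 12872 in all, were scaled by TMM (factors 0.869 to 1.107). The quasi-likelihood test of edgeR 4.0.16 (R 4.3.3) was run with group as the sole term, with Benjamini-Hochberg adjustment over all of them. The SE of a log2 fold change was derived from the quasi-likelihood F. The biological coefficient of variation was 0.272. On simulated counts of 5 against 5 libraries over 12800 genes, edgeR recovered 8% of genes changed 1.5-fold, 52% changed 2-fold, 92% changed 4-fold and 100% changed 8-fold, and 6 of its 129 calls were genes that had not been changed. DESeq2 recovered 20%, 64%, 96% and 100% of the same genes, and 23 of its 160 calls were genes that had not been changed. The changed genes of the simulation were drawn at random from all tested genes. Over all tested genes, the median SD of log2 CPM in the data was 0.26 in control and 0.32 in labelled knockout libraries. Tested P450 members varied more (0.43 and 0.56), so these rates need not hold for them. For groups without overlap, log2 CPM with a prior count of 2 was used.

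The P450 members, the gene lists, the motifs and the alternatives were chosen with earlier results of these data known. Genes named were, by rule, every called P450 gene, Cyp2e1, Cyp1a2 and Cyp2f2, the most abundant member of each subfamily that the grouping names (1a, 2a, 2b, 2c, 2d, 2e, 2f, 3a, 4a, 7, 8 and 27), the 10 with the smallest adjusted p, the 5 with the largest fold change each way, all members of the P450 role lists, and those without overlap. Of the other lists the rule allowed called genes, the smallest adjusted p and the most abundant gene, with Saa1, Por and Alas1, and only some of these are named in the text. Taken up outside it, after their values were seen, were Cyp1a1, Cyp1b1, Cyp2c40, Cyp2c67, Cyp2c68, Cyp2d10, Cyp2d26, Cyp2g1, Cyp2j5, Cyp3a13, Cyp3a25, Cyp3a59, Nr1i3, Nr1i2 and Ppara, as well as the marker genes given as checks.

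Alternatives were DESeq2 1.42.0, limma 3.58.1 on log2(TPM + 1) and log2(TPM + 0.1), other scalings and filters, the replicate number as a block, the run of file numbers as a term, and leaving out each library, those with Saa1 above 1000 TPM or those with Fos above 20 TPM. Promoters are from RefSeq, and 31-base words were compared over the GENCODE transcripts.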

Additional observations from a re-analysis of the deposited data

Results flagged for a closer look

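A library stood apart from the other 4 of its group, by Dixon's test at the 95% level, in 17 of 96 groups of P450 values in TPM. Chance flags about 1 in 20 groups of normally distributed values, which TPM need not be. Genes of a cluster share libraries and sequence, and some genes were named for large fold changes in these data. The number of flags therefore does not measure an excess over chance. Labelled knockout library 2 was high for 6 genes: Cyp4a10 (209 TPM), Cyp4a14 (188.5 TPM), Cyp4a31 (16.3 TPM), Cyp4a32 (16.17 TPM), Cyp8b1 (548.8 TPM) and Cyp39a1 (29.08 TPM). In the other labelled knockout libraries Cyp39a1 ran from 9.18 to 13.0 TPM and Cyp8b1 from 160 to 244 TPM.

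Labelled knockout library 1 was high for Cyp2a5 (413.1 TPM, the other 4 at 20.2 to 119 TPM) and Cyp2b10 (2.045 TPM). Labelled knockout library 3 was high for Cyp2c70 (838.7 TPM) and held the group's only reads of Cyp26c1 (0.03488 TPM, 1 count). Labelled knockout library 4 was high for Cyp4f16 (3.075 TPM) and Cyp4f18 (1.494 TPM), and library 5 was low for Cyp4f13 (44.81 TPM).

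Control library 4 was high for Cyp17a1 (28.59 TPM, the other 4 at 3.46 to 7.07 TPM), Cyp2a4 (2.538 TPM) and Cyp4f16 (4.183 TPM). Control library 3 was low for Cyp2f2 (738.6 TPM, the other 4 at 999 to 1055 TPM). That library had the lowest TMM factor (0.869), which TPM leave out. In log2 CPM, which is scaled by it, the control SD of Cyp2f2 was 0.14.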

How the results depend on the processing

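The median log2 fold change of tested P450 genes stayed between -0.29 and -0.15 in the alternatives run, and 0 members were called higher in any. The count called lower, 1 in the main test, was 6 with DESeq2, 2 with genes of at least 10 counts, 2 at an adjusted p under 0.1, 2 without high Saa1, and 0 with both limma fits, the run as a term or without high Fos. It was 0 to 3 when single libraries were left out (3 without labelled knockout library 1). Of all tested genes, 0.115% to 0.33% were called lower when single libraries were left out (0.33% without labelled knockout library 1), 0.256% at an adjusted p under 0.1, 0.101% and 0.124% with limma and 0.0754% without high Fos. Over the alternatives of 42 named genes, 747 values kept direction and side of the threshold, 11 passed it, 13 (all Cyp1a2) lost it and 69 changed sign. None of those that changed sign was called under any alternative, and the cause was not tested. Low counts limit the 12 untested members.

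Correlations of same-numbered deviations ran from -0.1 to 0.276, and 2 of 5 matched best with their own number. So few pairs cannot decide whether the replicate numbers pair the libraries. With a replicate block, 0 P450 genes were called (all tested genes 0.186% lower and 0.124% higher), Cyp1a2 was at -1.74 (edgeR, adjusted p = 0.053), Cyp2b10 at -0.03 and Cyp4a10 at -0.39.

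Labelled knockout libraries 2, 4 and 5 share a run without controls, so the fit with the run as a term leaves them out of the group value. Signs turned with the run as a term for Cyp17a1 (-0.26), Cyp21a1 (0.66), Cyp26b1 (-0.43), Cyp27a1 (0.02), Cyp2c70 (0.35), Cyp39a1 (-0.18), Cyp4a10 (-1.18), Cyp4a12a (0.20), Cyp4a14 (-0.62), Cyp4a31 (-0.80), Cyp4f13 (0.12), Cyp4f14 (0.07), Cyp4f15 (0.08), Cyp4f17 (-0.05), Cyp4f18 (-0.18) and Cyp8b1 (-0.06). With library totals alone they turned for Cyp2c70 (0.05), Cyp4a32 (0.08) and Cyp4f13 (0.05), and Cyp4a32 was at 0.00 with DESeq2 and its size factors. On log2(TPM + 1) they turned for Cyp2c70 (0.07), Cyp4a10 (-0.13), Cyp4a32 (0.05), Cyp4f13 (0.13) and Cyp4f17 (-0.01), and on log2(TPM + 0.1) for Cyp2b10 (-0.02), Cyp2c70 (0.07), Cyp4a10 (-0.15), Cyp4a32 (0.06), Cyp4f13 (0.13) and Cyp4f17 (-0.04). Without high Saa1 they turned for Cyp21a1 (0.03), Cyp26b1 (-0.21), Cyp2c70 (0.15), Cyp4a32 (0.16), Cyp4f13 (0.06) and Cyp7a1 (0.18), and without high Fos for Cyp4f16 (-0.07) and Cyp7b1 (-0.08).

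Leaving out single libraries gave -0.51 to 0.16 for Cyp21a1, -0.61 to 0.04 for Cyp26a1, -0.21 to 0.75 for Cyp26b1, -0.71 to 0.60 for Cyp2b10, -0.25 to 0.16 for Cyp2c70, -0.06 to 0.16 for Cyp2f2, -0.85 to 1.02 for Cyp4a10, -0.20 to 0.06 for Cyp4a32, -0.09 to 0.03 for Cyp4f13, -0.22 to 0.01 for Cyp4f15, -0.05 to 0.21 for Cyp4f17, -0.45 to 0.05 for Cyp7a1 and -0.06 to 0.34 for Cyp7b1.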
